A study of Xenopus laevis with 3 samples.

Results

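The Sox family genes sox2, sox3, sox4, sox9, sox10 and sox11 were examined in inner ear tissue of juvenile Xenopus laevis. Probe sets (Xl-PSIDs) were taken when the platform annotation gave exactly 1 gene symbol and that symbol, without its homeolog ending, was one of the 6. This left 10 of the 15495 Xl-PSIDs with 1 symbol, for 5 of 9240 genes. They comprise 3 for sox2, 2 for sox3, 2 for sox9, 1 for sox10 and 2 for sox11. No Xl-PSID remained for sox4, because the only one that carries its symbol lists both homeologs. A further one lists both homeologs of sox11, and no value is given for either. Xenopus laevis is allotetraploid, so most genes have an L and an S homeolog. The RefSeq table names 11 homeologs of the 6 genes, and 7 of them had an Xl-PSID of their own.

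All 3 arrays belong to 1 group of post metamorphic juveniles of about 3 months of age, with no treatment. Each was hybridised with labelled cDNA amplified from RNA pooled from several animals. Replicates 1, 2 and 3 held the inner ears of 5, 5 and 6 animals with mean weights of 9.0, 9.6 and 9.6 g. The larval stages of the study were not analysed here. The whole organ was extracted, so sensory epithelium, nerve, cartilage, pigment cells and vessels share each pool, and fewer cells of a type and less RNA per cell cannot be told apart. Values are log2 GCRMA intensities in arbitrary units (a.u.), the median over all Xl-PSIDs lay between 7.49 and 7.57 on the 3 arrays. Precision is limited by the small number of arrays. Detection required an average of at least 4 over the arrays. The study sets this minimum for calling an Xl-PSID upregulated, and its use as a detection rule was a choice made here. Hybridisation differs between probe sequences, so values of Xl-PSIDs were not ranked between genes. Within a gene, the Xl-PSID of highest mean was taken for the values of list genes and for the search for like patterns.

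Sox proteins bind DNA through an HMG box and are sorted into groups by the sequence of that domain. The SoxB1 group (sox1, sox2 and sox3) maintains neural and placodal progenitors, and Sox2 is required in mouse for the prosensory cells that yield hair cells and supporting cells. The SoxC group (sox4, sox11 and sox12) acts as neurons and other progenitors differentiate. Among the SoxE group (sox8, sox9 and sox10), Sox9 acts in induction of the otic placode in Xenopus and in cartilage, while Sox10 acts in neural crest, Schwann cells, pigment cells and the otic epithelium.

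The first question was which of these regulators were represented in the juvenile ear. Transcripts for sox2, sox9, sox10 and sox11 were detected, and those for sox3 were not. Of the 10 Xl-PSIDs 8 had a mean of 4 or more, beside 64.4% of all 32539 on the array and 72.8% of those with 1 symbol. The same 8 reached 4 on every array (63.1% of all) and passed limma's one-sided test that the average exceeds 4, with Benjamini-Hochberg adjustment over all Xl-PSIDs (62.2% of all). By gene, 4 of 5 were detected, a share close to the 80.2% of all genes with a symbol.

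**Figure D1:**
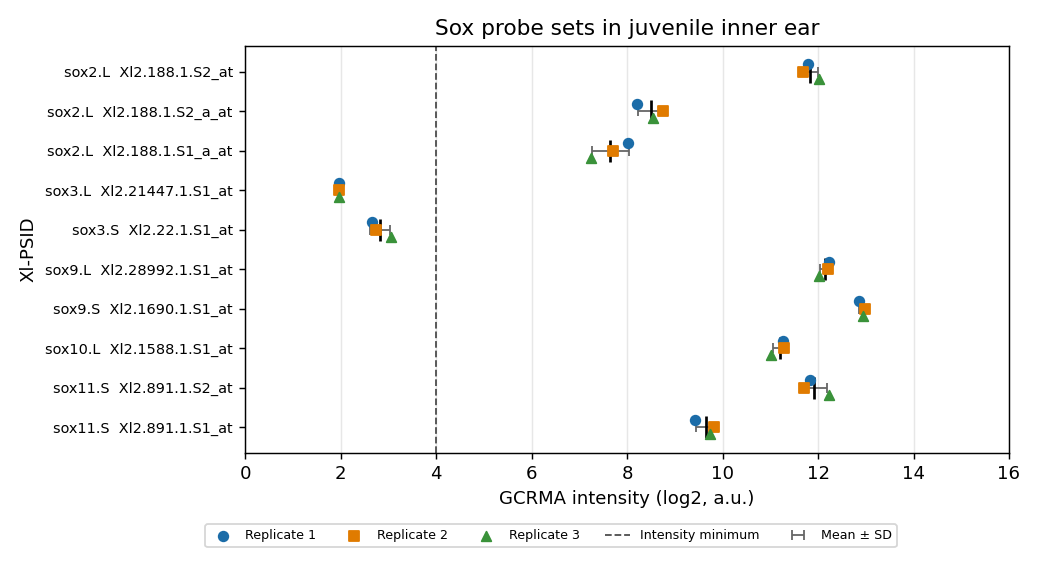
GCRMA intensity (log2, a.u.) of the 10 Sox Xl-PSIDs on each of the 3 arrays (symbols), with the mean (vertical tick) and SD (bars) over arrays and the intensity minimum of 4 (dashed line). The 2 Xl-PSIDs for sox3 lie below the minimum on every array and the other 8 lie above it.

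In the SoxB1 group, sox2 was measured by 3 Xl-PSIDs, all annotated to the L homeolog. Xl2.188.1.S2_at read 11.79, 11.69 and 12.01 on replicates 1, 2 and 3, a mean of 11.83 ± 0.17 (SD, n = 3 arrays; limma adjusted p = 3.86e-05). Xl2.188.1.S2_a_at, drawn from the same public sequence, read 8.20, 8.74 and 8.53, a mean of 8.49 ± 0.27 (limma adjusted p = 0.000246). All values of both stood above the minimum, but the first was highest on replicate 3 and the second on replicate 2. Xl2.188.1.S1_a_at read 8.01, 7.70 and 7.23 for sox2, a mean of 7.65 ± 0.39 (limma adjusted p = 0.000881), and was highest on replicate 1 and lowest on replicate 3. The 3 Xl-PSIDs therefore gave 3 different orders of the pools, and no pool was highest in sox2 on all of them.

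Both homeologs of sox3, a regulator of neural and placodal progenitors, were measured and neither was detected. The Xl-PSID for sox3.L read 1.97 on each of the 3 arrays, at the floor of the GCRMA scale, and the limma 95% interval of its mean ran from 1.95 to 1.99. The Xl-PSID for sox3.S read 2.66, 2.74 and 3.05, a mean of 2.82 ± 0.21 with a limma interval from 2.44 to 3.19. Both intervals ended below 4, and no array reached the minimum for either homeolog. Here and below, a value near the floor does not tell an absent transcript from an Xl-PSID that hybridises poorly. Of sox4 and sox11 only sox11.S had Xl-PSIDs of its own. Its Xl-PSID Xl2.891.1.S2_at read 11.84, 11.70 and 12.23, a mean of 11.92 ± 0.27 (limma adjusted p = 8.14e-05). The second, Xl2.891.1.S1_at, read 9.42, 9.83 and 9.73, a mean of 9.66 ± 0.21 (limma adjusted p = 9.47e-05). Both were far above the minimum on every pool, yet replicate 2 was lowest on one and highest on the other.

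In the SoxE group the Xl-PSIDs annotated to both homeologs of sox9 were detected. Whether an Xl-PSID also reads the other homeolog was not tested, here or below. The Xl-PSID for sox9.L read 12.22, 12.21 and 12.03, a mean of 12.15 ± 0.11 (limma adjusted p = 2.09e-05). That for sox9.S read 12.85, 12.98 and 12.95, a mean of 12.93 ± 0.07 (limma adjusted p = 1.24e-05). The pools lay within 0.19 and 0.13 of each other on these Xl-PSIDs, the smallest ranges among the 8 detected Xl-PSIDs of the 6 listed genes. For sox10 the L homeolog alone had an Xl-PSID of its own, which read 11.27, 11.29 and 11.02, a mean of 11.20 ± 0.15 (limma adjusted p = 3.73e-05). Replicates 1 and 2 were nearly equal for sox10.L and replicate 3 was lower by 0.26 than their mean.

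The next question was how far the pools differed in Sox transcripts. The range over the 3 arrays, highest minus lowest value, ran from 0.13 for sox9.S to 0.78 for the sox2 Xl-PSID Xl2.188.1.S1_a_at. Its median over the 8 detected Sox Xl-PSIDs was 0.37, beside 0.37 over all 20942 detected Xl-PSIDs. None of the 8 reached a range of 1.5, beside 2.89% of all detected Xl-PSIDs. The study sets a minimum fold change of 1.5 between stage averages, taken here as 1.5 on the log2 scale of its listed fold changes. That is an unlike measure to a range over single arrays of 1 stage. A range of 0.5 or more was found for 3 of the 8 (2 for sox2 and 1 for sox11), beside 34% of all. Each pool is a single array, so differences between pools carry no test. Replicate 3 was the lowest array for 3 of the 8 and the highest for 2, replicate 1 was lowest for 3, and the Sox Xl-PSIDs shared no order of the pools.

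**Figure D2:**
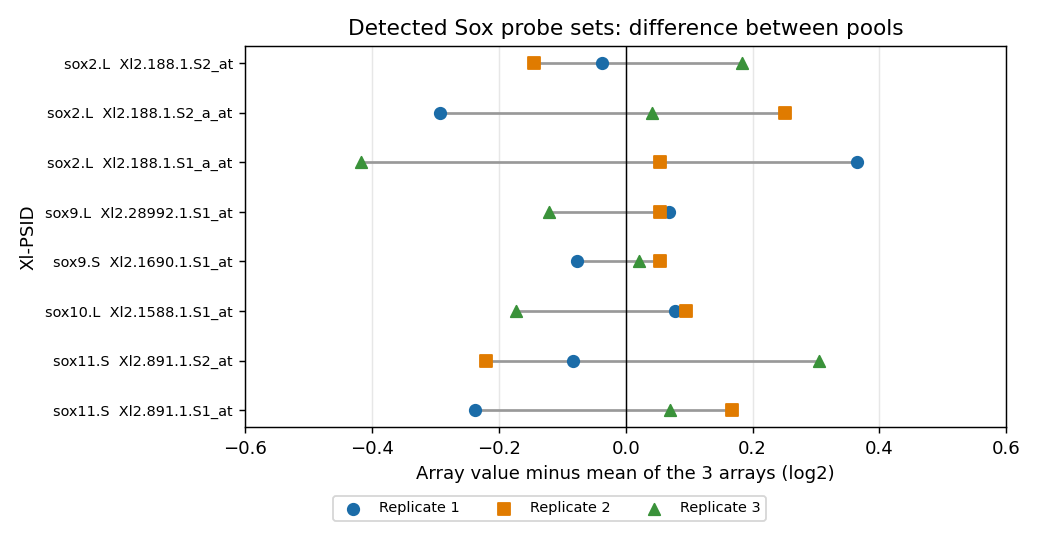
Value on each array minus the mean of the 3 arrays (log2) for the 8 detected Sox Xl-PSIDs, with a line from the lowest to the highest array. The Xl-PSIDs of sox2 and sox11 order the pools differently within a gene, and the lines for sox9.L and sox9.S are the shortest.

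The control transcripts gapdh and ef1a gave the same order of the pools. The authors state that every replicate met a minimum RNA integrity number. The difference between the Xl-PSIDs at the 5′ and 3′ ends, a sign of RNA quality, was measured on amplified cDNA. On replicates 1, 2 and 3 it was -1.13, -1.04 and -1.36 for gapdh and -3.13, -3 and -3.87 for ef1a. It was lowest on replicate 3 for both. For actin it was -12.63, -12.62 and -12.57, nearly equal on all arrays. So wide a gap puts the 5′ Xl-PSID of actin close to the floor of the scale, and its order of the pools was not used. Replicate 3 was the array on which sox9.L, sox10.L and Xl2.188.1.S1_a_at of sox2 were lowest while Xl2.188.1.S2_at of sox2 and Xl2.891.1.S2_at of sox11 were highest. The part of RNA quality, or of the amplification before hybridisation, in these differences was not tested.

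Only 1 of the 4 detected genes, sox11, had a range of 0.5 or more on its Xl-PSID of highest mean, and the genes whose pattern over the 3 arrays was most like it were sought. After centring each Xl-PSID on its mean, the closest were snx15, a sorting nexin of vesicle traffic, utp15, a ribosome biogenesis factor, and znf217, a zinc finger protein. Their largest differences from Xl2.891.1.S2_at of sox11 on any array were 0.0033, 0.011 and 0.012. With 3 arrays such likeness is common, and 103 of 3568 candidate Xl-PSIDs lay within 0.1 of the pattern of this Xl-PSID. The other sox11 Xl-PSID, Xl2.891.1.S1_at, ordered the pools differently and did not share the pattern.

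Other members of the family were then counted. Of the 9 measured, 7 were detected, beside 80.2% of all genes, with 15 of their 18 Xl-PSIDs at or above 4, beside 72.8% of those with 1 symbol. The limma test passed the same number. The SoxB1 gene sox1 was detected on its single Xl-PSID, which read 8.67, 7.90 and 9.06, a mean of 8.54 ± 0.59 (limma adjusted p = 0.00137). Its range of 1.16 was the widest of the Sox Xl-PSIDs with 1 symbol, with replicate 2 lowest. The third SoxE gene, sox8, which overlaps in function with sox9 and sox10, was detected on 3 of 3 Xl-PSIDs, of which the highest mean was 9.13 ± 0.11. The SoxC gene sox12 was at 1.89 on each array and not detected.

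Genes of the SoxF group act in endothelium, and sox17 genes also in endoderm. Detected were sox7 (6.41 ± 0.31), both homeologs of sox18 (8.34 ± 0.09 for L and 7.37 ± 0.10 for S) and both of sox17a (5.29 ± 0.18 for L and 6.16 ± 0.18 for S). Both homeologs of sox17b.1, a gene of the endoderm, were at the floor (1.96 for L and 2.02 for S). Among endothelial markers 2 of 3 were detected, beside 80.2% of all genes. They were the receptor tek (6.88 ± 0.11) and the adhesion protein pecam1 (6.51 ± 0.39), but not flt1 (2.34 ± 0.37). The SoxD gene sox13 was detected on 2 of 2 Xl-PSIDs (11.26 ± 0.28 and 11.17 ± 0.13), and sox15 on 4 of 4, with means from 8.61 to 10.15.

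**Figure D3:**
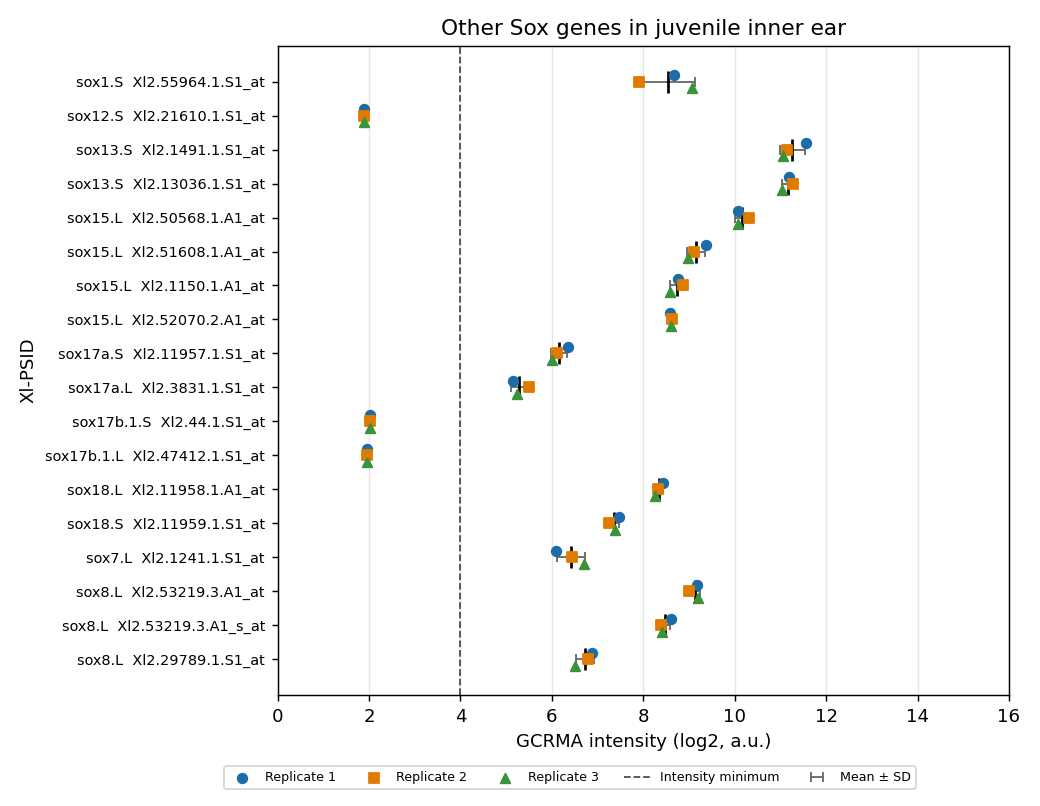
GCRMA intensity (log2, a.u.) of the 18 Xl-PSIDs of other Sox genes on each array, with the mean (tick), the SD (bars) and the intensity minimum of 4 (dashed line). Those for sox12 and sox17b.1 lie at the floor of the scale, and sox1 spreads most between the pools, from 7.90 to 9.06.

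Genes known to act with the detected Sox factors, or downstream of them, were set beside each, and each count of genes reads against the 80.2% of all genes detected by the same rule. In a list of sensory progenitor and supporting cell genes, the setting of sox2, 18 of 21 measured genes were detected, a share close to that background. They included the Notch ligand jag1, which read 13.36, 13.18 and 13.53, the Notch effector hes1 (10.78 ± 0.23), gata3 (10.29 ± 0.03) and the phosphatase eya1 (5.43 ± 0.30). Not detected were lfng (2.08 ± 0.01), a modifier of Notch, prox1 (1.95 ± 0.00), a factor of supporting cells, and the cell cycle inhibitor cdkn1b (1.90 ± 0.00). Jag1 was highest on replicate 3 and lowest on replicate 2, as was Xl2.188.1.S2_at of sox2, whereas the other sox2 Xl-PSIDs gave other orders. The list as a whole had median shifts of 0.07, 0.07 and -0.04 on replicates 1, 2 and 3. A shift is the value on an array minus the mean of the other arrays. The median shifts of each list were taken over all its detected Xl-PSIDs, 36 in this list. A gene with several Xl-PSIDs therefore weighs more in them.

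Cartilage genes, among them direct targets of Sox9 in mouse, were detected for 9 of 9 measured. Collagen II (col2a1) read 14.38, 14.03 and 14.01, collagen IX (col9a1) read 14.81, 14.60 and 14.66, and the cartilage matrix protein matn1 read 8.25, 8.21 and 8.09. The list had median shifts of 0.26, -0.12 and -0.16, so it was highest on replicate 1. The shifts of sox9.L were 0.10, 0.08 and -0.18 and those of sox9.S were -0.11, 0.08 and 0.03. Replicate 1 was thus the lowest array for sox9.S and, by a small margin that quantile normalization turned to replicate 2, the highest for sox9.L.

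Sox10 is needed in Schwann cells and pigment cells, and markers of both were counted. Of 7 measured Schwann cell and myelin genes 5 were detected, including the myelin proteins mbp, which read 14.37, 14.34 and 14.10, and pmp22, which read 14.87, 14.62 and 14.69. The myelin regulator egr2 was at 1.92 on every array and not detected. Of 6 pigment cell genes 5 were detected, including the melanosome protein pmel (12.57 ± 0.18) and the pigment enzyme tyrp1 (9.90 ± 0.65), while mitf, a target of Sox10 in melanocytes of mouse, was at 2.13 ± 0.00 and not detected. The shifts of sox10.L were 0.12, 0.14 and -0.26. The myelin list had shifts of 0.24, -0.08 and -0.28 and the pigment list -0.67, 0.26 and 0.27, so replicate 3 was lowest for sox10.L and the myelin list, and replicate 1 for the pigment list. The part of nerve or pigment cell content in the sox10 values was not tested.

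Neuronal genes, the setting of the SoxC factors, were detected for 17 of 21 measured, also close to the 80.2% of all genes, and limma passed 15. Neuronal tubulins tubb3 (11.94, 11.12 and 10.14) and tubb2b (12.14, 11.71 and 11.28) and the stathmin stmn2 (10.92, 10.33 and 9.64) were each highest on replicate 1 and lowest on replicate 3. Neurod1, a factor of otic neurons, read 6.75, 4.57 and 3.78, and the limma test did not pass it (adjusted p = 0.233). Of 2 Xl-PSIDs each for stmn2 and neurod1, only the 1 given here was detected. Elavl3 was at the floor (1.97 ± 0.07). The neuron list had shifts of 1.20, 0.03 and -1.05 on replicates 1, 2 and 3, while Xl2.891.1.S2_at of sox11 had -0.13, -0.33 and 0.46 and Xl2.891.1.S1_at had -0.36, 0.25 and 0.11. Replicate 3 was thus the lowest array by the neuron list's median and the highest for Xl2.891.1.S2_at of sox11, whereas for Xl2.891.1.S1_at it lay between the other arrays. Proliferation genes, which mark dividing cells, were detected for 7 of 10, with shifts of 0.11, -0.31 and 0.18.

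**Figure D4:**
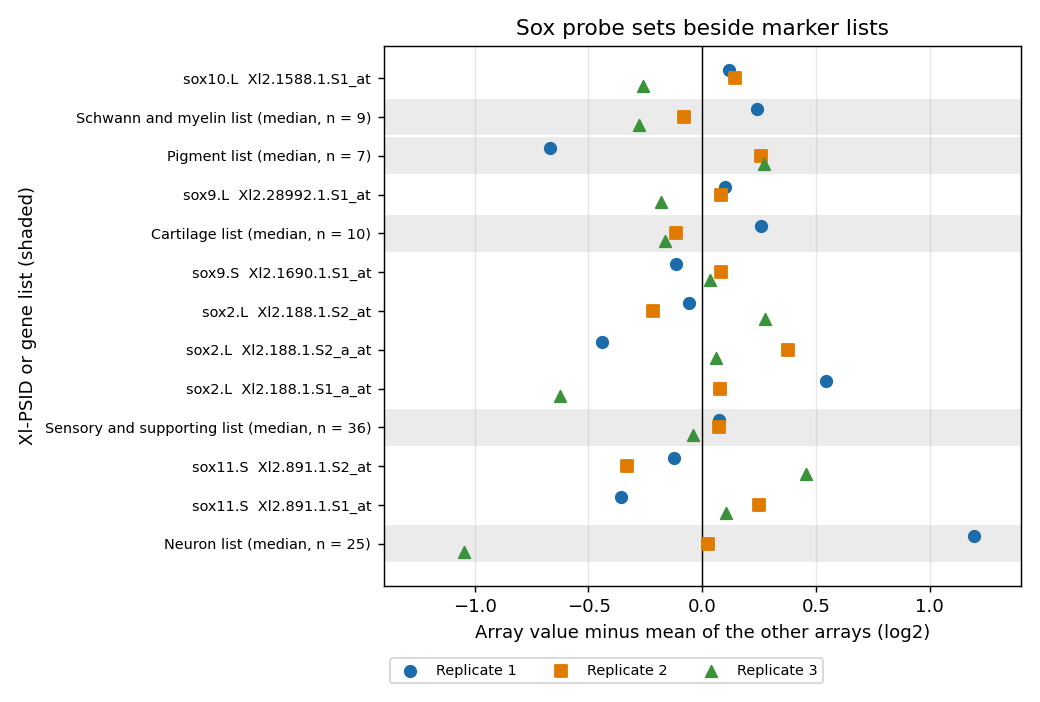
Value on each array minus the mean of the other arrays (log2) for the detected Sox Xl-PSIDs and, shaded, the median of the same over the detected Xl-PSIDs of marker lists (n). The neuron list spans 1.20 to -1.05, and the sox11 Xl-PSID Xl2.891.1.S2_at lies at 0.46 on replicate 3 where that list lies below 0.

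Brain markers were counted because sox3 and sox1 are also genes of the neural tube. Of 8 measured, 3 were detected, beside 80.2% of all genes. They were the zinc finger genes zic1 (13.08 ± 0.05) and zic2 (13.00 ± 0.12) and the enzyme aldh1l1 (8.46 ± 0.32). The regional genes pax6 (1.97), en2 (2.04), nkx2-2 (1.97) and hoxb4 (1.94) lay at the floor, as did sox3.L, and myt1 read 4.14, 2.11 and 2.27 and was not detected on average. The zic genes are also expressed in the otic region, and their source in these pools was not tested. Of genes of other tissues, 10 of 10 for skeletal muscle, 4 of 5 for skin and gland and 3 of 4 for leukocytes were detected, beside 80.2% of all genes, and limma passed 9, 3 and 3. The skin and gland list had median shifts of 1.48, 1.61 and -3.09 over 6 detected Xl-PSIDs, of which 3 stand for xt6l. That gene read 10.35, 10.40 and 7.22, while the keratin krt61 read 13.20, 13.37 and 12.88. The muscle list had median shifts of -0.30, -1.16 and 0.93. Of its 19 detected Xl-PSIDs, 14 were highest on replicate 3 and 5 on replicate 1. Also highest on replicate 3 were sox1, sox7, Xl2.53219.3.A1_at of sox8, Xl2.188.1.S2_at of sox2 and Xl2.891.1.S2_at of sox11. All other detected Sox Xl-PSIDs were highest on replicate 1 or 2, among them the other Xl-PSIDs of sox2, sox8 and sox11. The part of these tissues in the Sox values was not tested.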

How the data were processed

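RNA of pooled juvenile inner ears was amplified by the authors to labelled cDNA, which was hybridised to Affymetrix GeneChip Xenopus laevis arrays. The authors preprocessed the scans with GCRMA in JMP Genomics and deposited 1 log2 intensity per Xl-PSID and array. GCRMA leaves unexpressed Xl-PSIDs near 2, where differences are compressed. The sources used here do not say whether larval arrays were normalized together with these. Controls (96 Xl-PSIDs) served for RNA quality only. Symbols came from the platform annotation, updated for lists through RefSeq (Xenopus_laevis_v10.1, names only). Of 32539 Xl-PSIDs 16765 had no row there and 279 had several symbols, so absence of detection refers to Xl-PSIDs with 1 symbol.

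Detection was tested with limma 3.58.1 (R 4.3.3) at an adjusted p of 0.05, and p-values measure the spread between pools only. Data were simulated for 32539 Xl-PSIDs with the observed means and SDs. At each level below, 200 Xl-PSIDs drawn from those with a mean of 4 or more were placed. The test passed 2.5% of those exactly at the minimum, 75% of those 0.5 higher, 93.5% of those 1 higher and 98% of those 2 higher. These shares hold for this mix of Xl-PSIDs only. Values for genes of the 12 lists are those of the Xl-PSID of highest mean with 1 symbol. Median shifts of a list use all its detected Xl-PSIDs. Entries such as acan, mpz, dct, tyr and atoh1 had none under the symbol used and were not counted. Named genes were all measured Sox genes and those with a known tie to a Sox factor. Added after their values were seen were cdkn1b, pmel, tyrp1, flt1, tek, pecam1, aldh1l1, en2, nkx2-2, hoxb4, myt1, xt6l and krt61. Members, lists and tests were chosen with earlier results of these data known. Alternatives were other minimums, quantile normalization, other Xl-PSID classes, other limma settings and leaving out each replicate.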

Additional observations from a re-analysis of the deposited data

How the results depend on the processing

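Counts of 8 detected Sox Xl-PSIDs and 4 Sox genes were found again at minimums of 3, 5 and 6, with the minimum required on every array, after quantile normalization and without each replicate in turn. At a minimum of 8 there were 7 Xl-PSIDs, of which limma passed 6, for 4 genes, and 5 in place of 7 other Sox genes. Without Xl-PSIDs whose suffix marks possible matches to several transcripts, 6 Xl-PSIDs and 4 genes were detected. In the other settings limma passed 8, with adjusted p up to 0.0122 when a replicate was left out. None of the 10 Sox Xl-PSIDs reached a range of 1. Shares over all Xl-PSIDs were not computed at other minimums, without suffixed Xl-PSIDs or at a range of 1. These counts therefore have no background beside them, and the median over all Xl-PSIDs lay below 8 on each array. Quantile normalization kept the lowest array of all 8 Xl-PSIDs and the highest of 6, the exceptions being sox9.L and sox9.S. Without replicate 1, the cartilage and myelin lists on replicate 3 became -0.033 and -0.053 and the neuron list -0.56. The pigment list there turned from 0.27 to -0.043, and the proliferation list rose from 0.18 to 0.47. The shift of Xl2.891.1.S1_at of sox11 there turned from 0.11 to -0.098. For sox10.L on replicate 1 the shift turned from 0.12 to -0.018 without replicate 3. With 3 arrays, leaving out a replicate reduces a shift to a difference from the single array that remains. The middle array of any Xl-PSID then changes sign when either the highest or the lowest array is left out. Such turns are therefore not particular to the Sox Xl-PSIDs. The sensory list on replicate 2 turned from 0.07 to -0.0059 without replicate 1 and -0.029 without replicate 3. On replicate 1, the proliferation list turned from 0.11 to -0.057 without replicate 2, and without replicate 3 the muscle list from -0.30 to 0.17 and the skin and gland list from 1.48 to -0.14. No paired analysis was possible because the labels define 1 group. Scanner files were not analysed here, so background correction was not varied.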
